A study of Mus musculus with 11 samples.

Results

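Ankyrin G is the scaffold protein, encoded by *Ank3*, that anchors membrane proteins to the spectrin and actin cytoskeleton at the axon initial segment and at nodes of Ranvier. At the initial segment it gathers the sodium channels that start the action potential and keeps axonal and dendritic membranes apart. The RNA-seq libraries of mice in which *Ank3* was targeted were compared with those in which it was not, whatever the state of *Nfasc*, the gene for the ankyrin-binding adhesion molecule neurofascin. Of the 11 libraries, 5 were Ank3-deleted by their labels and 6 were Ank3-intact, and all 11 entered the comparison. The deleted libraries were 2 from AnkGKO (Pcp2-Cre;AnkGFx/Fx) and 3 from DKO (Pcp2-Cre;NfascFx/Fx;AnkGFx/Fx) mice. The intact libraries were 3 from Control mice and 3 from NFKO (Pcp2-Cre;NfascFx/Fx) mice. The comparison answers which transcripts moved with the loss of *Ank3* in mice labelled as *Nfasc* intact and in mice labelled as *Nfasc* deleted.

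Polyadenylated RNA was sequenced from tissue labelled as cerebellar hemisphere of untreated littermates of mixed sex on a mixed C57BL/6J;129 background, with an age of postnatal day 30 in 1 label and 32 in another, and all labelled as batch 1. The Pcp2-Cre transgene drives recombination mainly in Purkinje cells, so that any change confined to these cells is diluted in bulk RNA. Fewer cells of a type and less RNA per cell cannot be told apart in such samples. The study's methods describe Control mice as floxed without Cre, while its results text writes their genotype with Cre. Taken by the methods, Cre was present in all 5 deleted libraries but in 3 of the 6 intact ones, and in every library of DKO against NFKO. The AnkGKO mice carry no floxed *Nfasc* in their label and the NFKO mice no floxed *Ank3*. In Nfasc-intact mice, the floxed *Nfasc* alleles of the controls, the Cre transgene and the loss of *Ank3* therefore cannot be told apart.

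Gene counts summed to 42362218 to 55822361 in the deleted and 38890851 to 53758610 in the intact libraries. Levels are given as CPM, gene counts relative to the TMM-scaled library size, in which 3 counts correspond to 0.0546 to 0.0780 CPM, a floor that covers counting error only. Several measures of the libraries moved with the groups or went against the labels. Reads that aligned to more than 1 place made up 32.5 to 33.5% of the total over all rows of the table in the deleted and 33.7 to 34.3% in the intact libraries, without overlap. *Pcp2*, whose promoter drives the Cre in Purkinje cells, reached 26.3 CPM in Control 1 and 28.3 CPM in NFKO 1 and at most 2.14 CPM in the other 9 libraries. The caudal gene *Hoxc8*, which marks spinal rather than cerebellar tissue, lay at 7.99 to 159 CPM in all libraries. Control 1 and DKO 1 each held reads of both *Xist* and Y-linked genes. Results were therefore also computed without Control 1 and NFKO 1, and without Control 1 and DKO 1. Fits with *Xist* or *Hoxc8* as a covariate were run as well. The part of these differences in the results below was otherwise not tested.

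*Ank3* measured 360, 375 and 353 CPM in the Control and 407, 386 and 385 CPM in the NFKO mice. It was at 156 and 200 CPM in AnkGKO and at 185, 160 and 174 CPM in DKO. All deleted libraries lay below all intact ones, and the deleted mean of 175 ± 18.3 CPM (SD, n = 5) was 46.3% of the intact mean of 378 ± 19.4 CPM (SD, n = 6). The log2 fold change was -1.10 (standard error, SE, 0.07, adjusted p = 1.53e-05 in the quasi-likelihood fit of edgeR), with -1.03 in AnkGKO over Control and -1.18 in DKO over NFKO. *Ank3* lies on chromosome 10 of GRCm39 from 69234603 to 69863268. Counts cover the whole gene, so transcripts with and without the floxed exons cannot be told apart. The fall was measured in bulk RNA of libraries in which *Pcp2* was low, and which cells lost *Ank3* was not tested. *Nfasc* lay at 622 to 718 CPM in the intact and 559 to 953 CPM in the deleted libraries, and its log2 fold change was 0.06 (95% confidence interval -0.09 to 0.22, adjusted p = 0.785 from the same test). The Ank3-intact range holds Control and NFKO together, so whole-gene counts showed no fall of *Nfasc* in NFKO like that of *Ank3*. *Nfasc* intact or deleted follows the labels throughout.

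Of 17557 genes tested, 23 were called at an adjusted p under 0.05 with a log2 fold change of 0.6 or more in size, which is 0.131% of them. Of these, 16 were higher (0.0911%) and 7 lower (0.0399%) in the deleted libraries. Without the fold threshold 38 genes passed, 0.216% of those tested. The 23 genes fell into 2 sets. In 10 genes every deleted library lay above, or below, every intact library, and none of these 10 differed between the Nfasc backgrounds at an adjusted p under 0.05. In the other 13 the groups overlapped, and all 13 differed between the backgrounds at that threshold. Over all genes, 93 had every deleted library above every intact one (0.530%) and 83 had every deleted library below (0.473%). When the libraries were fitted as deleted and intact alone, without genotype, 6 genes were called (*Ank3*, *Mcf2*, *Ecel1*, *Sprr1a*, *Colec10* and *Phgdh*), all from the first 10, and none of the 13 overlapping genes reached an adjusted p under 0.05. Without Control 1 and NFKO 1, 11 genes were called, 8 of them among the 23, and without AnkGKO 2, 13 genes were called, all among the 23. Without Control 1 and DKO 1, 31 genes were called, but 15 of them were among the 23. DESeq2 with a local dispersion fit called 127, all 23 included.

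**Figure D1:**
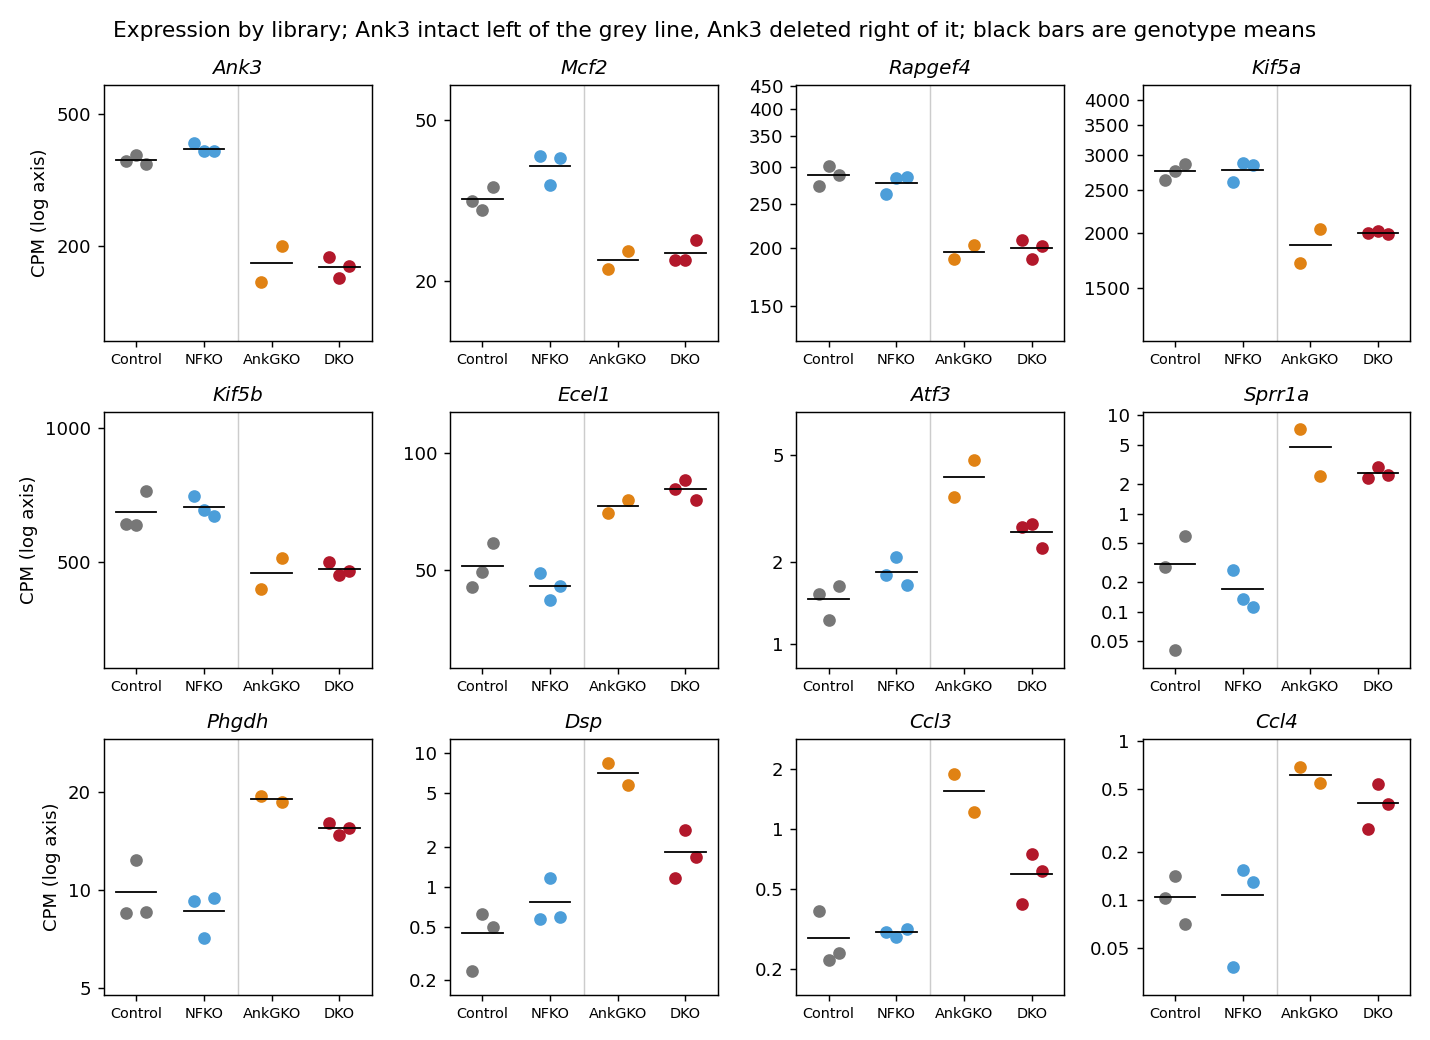
Expression in TMM-scaled CPM (log axis) of 12 genes in each of the 11 libraries, with Ank3-intact genotypes (Control, NFKO) left and Ank3-deleted genotypes (AnkGKO, DKO) right of the grey line and black bars at genotype means. The first 5 panels show genes whose 5 deleted libraries all lay below the 6 intact ones, such as Ank3 at 156 to 200 against 353 to 407 CPM, and the other 7 show genes whose deleted libraries all lay above.

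The genes with non-overlapping libraries included 3 that neurons are known to induce when their axons are damaged. *Ecel1*, a membrane metallopeptidase of the endothelin-converting enzyme family, was at 45.1, 49.2 and 58.6 CPM in Control mice and 49.1, 41.8 and 45.3 CPM in NFKO. It was at 70.0 and 75.9 CPM in AnkGKO and 80.8, 85.3 and 76.0 CPM in DKO. The lowest deleted library thus exceeded the highest intact one, and the log2 fold change was 0.67 (SE 0.07, adjusted p = 0.00203), 0.52 with *Nfasc* intact and 0.83 with *Nfasc* deleted.

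*Sprr1a*, a small proline-rich protein known from the epidermis and from regenerating axons, was counted 11, 2 and 25 times in Control and 14, 7 and 6 times in NFKO. It was counted 349 and 110 times in AnkGKO and 98, 129 and 135 times in DKO. In CPM this was 0.0403 to 0.595 in intact and 2.29 to 7.20 in deleted libraries, with AnkGKO 1 far above the other 4. The log2 fold change was 3.94 (SE 0.51, adjusted p = 0.0136), nearly the same in the 2 backgrounds at 3.98 and 3.90. The adjusted p rose to 0.166 without Control 1 and NFKO 1 and to 0.111 without Control 1 and DKO 1.

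*Atf3*, a stress-induced transcription factor of the ATF/CREB family, was at 1.53, 1.23 and 1.64 CPM in Control mice and 1.80, 2.10 and 1.65 CPM in NFKO, against 3.49 and 4.78 CPM in AnkGKO and 2.71, 2.78 and 2.26 CPM in DKO. The DKO libraries lay only just above the highest NFKO library. The log2 fold change was 0.99 (SE 0.14, adjusted p = 0.0136), with 1.49 in AnkGKO over Control and 0.48 in DKO over NFKO, and the difference between these did not pass (adjusted p = 0.209). Without Control 1 and NFKO 1 the adjusted p for *Atf3* was 0.117, without AnkGKO 2 it was 0.108, and in the fit without genotype it was 0.226. It passed 0.05 in 17 of 23 alternative settings.

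These 3 were the called members of a list of 11 axonal injury genes, all of which were tested, beside 0.131% called over all genes. This list and those below were written with earlier results of these data known, so their shares are a description and not a test. Of the list 9 were higher and 2 lower, and the median log2 fold change was 0.09, beside -0.0028 over all genes. The 4 members at an unadjusted p under 0.05 in the higher direction, a level that 5.04% of all genes reached, were the same 4 whose deleted libraries all lay above the intact ones, beside 0.530% of all genes. The fourth was *Csf1*, the growth factor through which injured neurons act on microglia, at 65.3 to 74.3 CPM in intact and 76.3 to 85.8 CPM in deleted libraries (log2 fold change 0.21, adjusted p = 0.125). Summed over the list, the deleted libraries lay at 412 to 455 CPM and the intact ones at 370 to 391 CPM. Without Control 1 and NFKO 1 the list held 1 called member.

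The 250 bases before the start of the 3 called injury genes are shown because the 3 rose together and because ATF3 belongs to the factors that bind AP-1 and CRE elements. The sequences are from RefSeq on GRCm38.p6, 5′ to 3′ on the strand of the gene, with matches to AP-1 (TGANTCA), CRE (TGACGTCA) or the ATF4 composite element (TGATGNAA) on either strand in capitals.
Sprr1a chr3:92485882-92486131 (minus strand): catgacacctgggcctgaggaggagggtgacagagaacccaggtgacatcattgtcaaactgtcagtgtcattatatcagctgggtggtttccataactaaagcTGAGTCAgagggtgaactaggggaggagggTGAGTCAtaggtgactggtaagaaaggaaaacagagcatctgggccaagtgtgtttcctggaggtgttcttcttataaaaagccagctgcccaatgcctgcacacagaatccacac
Atf3 chr1:191183334-191183583 (minus strand): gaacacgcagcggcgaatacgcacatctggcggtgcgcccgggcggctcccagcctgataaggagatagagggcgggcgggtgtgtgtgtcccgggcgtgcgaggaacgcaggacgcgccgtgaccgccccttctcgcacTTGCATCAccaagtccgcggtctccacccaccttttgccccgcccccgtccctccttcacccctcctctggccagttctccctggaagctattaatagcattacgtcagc
Ecel1 chr1:87156357-87156606 (minus strand): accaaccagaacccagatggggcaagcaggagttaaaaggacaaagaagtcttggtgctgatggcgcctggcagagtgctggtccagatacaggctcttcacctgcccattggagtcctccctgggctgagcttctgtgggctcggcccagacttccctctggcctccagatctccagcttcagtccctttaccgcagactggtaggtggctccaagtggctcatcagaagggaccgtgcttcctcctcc
The *Sprr1a* window held 2 AP-1 matches, which began 146 and 116 bases before the start. The *Atf3* window held 1 match to the ATF4 composite element, 110 bases before the start, and the *Ecel1* window held no match to the 3 motifs. Of 32851 RefSeq windows of this length, 6.75% held the AP-1 motif, 1.55% the CRE and 3.45% the ATF4 composite element. Of 13 genes looked for, 8 had a window, and those of *Phgdh*, *Dsp*, *Ccl3*, *Mcf2* and *Rapgef4* held none of these letters. A match describes the letters of the window and not a site that is used.

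*Phgdh*, the first enzyme of serine synthesis from glycolytic intermediates, was at 8.50, 12.4 and 8.57 CPM in Control mice and 9.22, 7.13 and 9.42 CPM in NFKO. It was at 19.4 and 18.7 CPM in AnkGKO and 16.1, 14.8 and 15.5 CPM in DKO. The groups did not overlap, and the log2 fold change was 0.90 (SE 0.11, adjusted p = 0.00500), similar in both backgrounds at 0.95 and 0.85. *Phgdh* was the called member among 13 tested genes of the integrated stress response list (7.69%), beside 0.131% called over all genes. Of the list 9 were higher and 4 lower, with a median log2 fold change of 0.09, beside -0.0028 over all genes. The next members by p-value were *Asns*, asparagine synthetase, at 0.13 (adjusted p = 0.437) and *Ddit4*, an inhibitor of mTOR signalling, at 0.62 (adjusted p = 0.466). In the annotation 28.1% of the 50-base words of *Phgdh* also occur in another gene, so that its counts may be shared with these.

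*Colec10*, a secreted collectin of the lectin complement pathway, was counted 7 times in all over the 6 intact libraries, with fewer than 3 counts in each, and 120 times over the 5 deleted libraries. The counts were 44 and 23 in AnkGKO and 18, 13 and 22 in DKO. Its fitted log2 fold change of 4.37 (adjusted p = 0.00244) rests on intact values below the floor and is not a precise size. *Dsp*, the desmosomal linker desmoplakin, was at 0.234 to 1.16 CPM in the intact libraries, at 8.44 and 5.74 CPM in AnkGKO and at 1.17, 2.64 and 1.67 CPM in DKO. DKO 1 and NFKO 2 thus lay side by side, and the overall log2 value of 2.59 (SE 0.30, adjusted p = 0.00423) divided into 3.94 with *Nfasc* intact and 1.24 without it. That difference of -2.71 between the backgrounds did not pass the threshold of 0.05 after adjustment.

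The chemokines *Ccl3* and *Ccl4*, which activated microglia secrete, were low but higher in every deleted library. *Ccl3* was counted 10 to 17 times in the intact libraries, 91 and 56 times in AnkGKO and 18, 32 and 34 times in DKO, and its log2 fold change was 1.71 (SE 0.25, adjusted p = 0.0134). *Ccl4* was counted 2 to 8 times in the intact libraries, 33 and 25 times in AnkGKO and 12, 23 and 22 times in DKO, and its log2 fold change was 2.19 (SE 0.35, adjusted p = 0.0272). *Ccl4* lost its call in 13 of 23 alternative settings, with an adjusted p of up to 0.121 without Control 1 and NFKO 1, and *Ccl3* lost it in 4, with up to 0.226 in the fit without genotype and a value just under the threshold without Control 3.

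*Ccl3* and *Ccl4* were the called members of a list of 22 activated microglia genes, 19 of which were higher in the deleted libraries, beside 0.131% called over all genes. The median log2 fold change was 0.25, at 0.35 in AnkGKO over Control and 0.17 in DKO over NFKO, and 12 members were higher at an unadjusted p under 0.05, a level that 5.04% of all genes reached. The pattern recognition receptor *Clec7a* was at 1.48 to 3.08 CPM in intact and 2.89 to 7.26 CPM in deleted libraries, overlapping in DKO 1 (log2 fold change 0.94, adjusted p = 0.0827). Summed CPM of the list was 3346 to 3659 in the intact and 3664 to 4169 in the deleted libraries, of which *Apoe*, the lipid carrier made by glia, was 1399 to 1582 and 1507 to 1879 CPM. Among 20 general microglia genes 19 were higher, 8 of them at an unadjusted p under 0.05, with a median of 0.25 and no call. The lysosomal gene *Cd68* (4.03 to 5.86 CPM intact, 5.16 to 8.01 CPM deleted, adjusted p = 0.199) had the smallest p-value in that list. Without Control 1 and NFKO 1, 19 of the 22 and 18 of the 20 were higher, with medians of 0.23 and 0.19.

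Astrocyte and complement genes held no call, and their medians were higher mainly where *Nfasc* was intact. *Gfap*, the intermediate filament of reactive astrocytes, was at 1398 to 2151 CPM in intact and 1982 to 3054 CPM in deleted libraries (log2 fold change 0.64, adjusted p = 0.0779), and Control 2 lay above DKO 3. *Stat3*, a transcription factor of the astrocyte response, was at no more than 121 CPM in intact and 122 to 159 CPM in deleted libraries without overlap (log2 fold change 0.28, adjusted p = 0.0979). Of 26 reactive astrocyte genes 18 were higher, with 5 at an unadjusted p under 0.05 and a median of 0.15, which was 0.22 in AnkGKO over Control and -0.03 in DKO over NFKO. Of 12 complement genes 8 were higher, with 5 at that level and a median of 0.23, which was 0.30 and 0.07 in the same comparisons. Clusterin (*Clu*), a secreted chaperone, was at 706 to 754 CPM in intact and 842 to 924 CPM in deleted libraries (log2 fold change 0.23, adjusted p = 0.0815), and *C3*, the central complement component, was at 33.8 to 63.6 against 53.2 to 84.4 CPM (adjusted p = 0.208). Among 27 interferon response genes 16 were higher, and the median was 0.37 in AnkGKO over Control but -0.43 in DKO over NFKO.

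**Figure D2:**
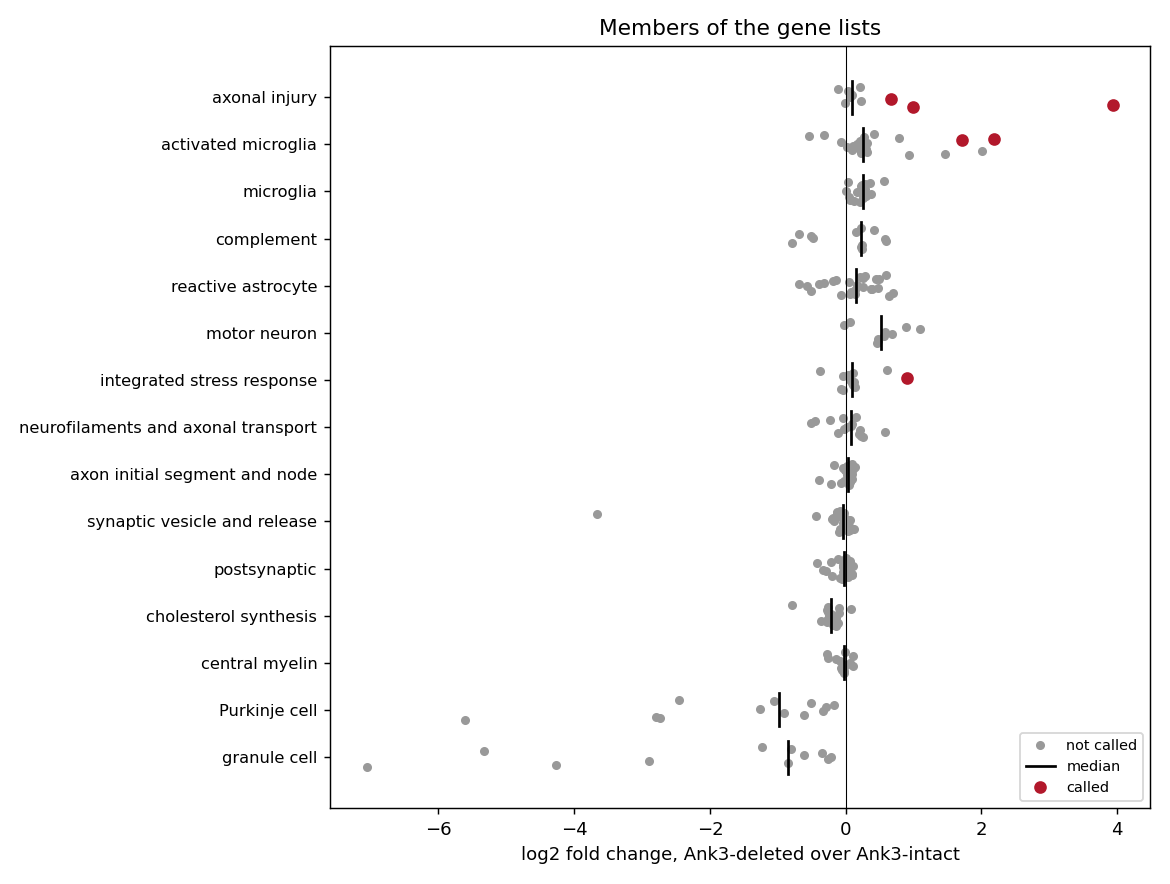
Log2 fold change, Ank3-deleted over Ank3-intact, of each tested member of 15 gene lists, with called members in red, other members in grey and the median of each list as a black bar. Called genes appear in axonal injury (3), activated microglia (2) and integrated stress response (1), while 16 of 17 cholesterol synthesis genes and all Purkinje and granule cell genes lie left of 0 without a call.

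On the lower side, *Mcf2*, a guanine nucleotide exchange factor encoded on chromosome X, was called beside *Ank3* with non-overlapping libraries. It was at 31.4, 29.9 and 34.0 CPM in Control, 40.6, 34.5 and 40.1 CPM in NFKO, 21.3 and 23.6 CPM in AnkGKO and 22.4, 22.4 and 25.1 CPM in DKO. The log2 fold change was -0.61 (SE 0.07, adjusted p = 0.00229), at -0.50 with *Nfasc* intact and -0.72 without it.

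The heavy chains of kinesin-1, the motor that carries vesicles and neurofilaments down the axon, were lower below the fold threshold. *Kif5a*, its neuronal form, was at 2626, 2761 and 2866 CPM in Control, 2601, 2879 and 2850 CPM in NFKO, 1710 and 2040 CPM in AnkGKO and 1994, 2021 and 1981 CPM in DKO. The deleted libraries stood at 70.5% of the intact mean, and the log2 fold change was -0.51 (SE 0.06, adjusted p = 0.00245). *Kif5b*, the form found in most cells, was at 606 to 725 CPM in intact and 435 to 511 CPM in deleted libraries (log2 fold change -0.46, adjusted p = 0.0115). *Kif5c* overlapped, at 1164 to 1420 against 959 to 1201 CPM (log2 fold change -0.23, adjusted p = 0.328). The log2 fold changes with *Nfasc* intact and deleted were -0.55 and -0.47 for *Kif5a* and -0.45 and -0.46 for *Kif5b*. No other of the 15 tested neurofilament and transport genes had an adjusted p under 0.05, and the list's median was 0.07. *Kif5b* passed 0.05 no longer without Control 1 and NFKO 1 (adjusted p = 0.0608) or without AnkGKO 1 (0.0612).

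A further 2 genes with an adjusted p under 0.05, a smaller fold and non-overlapping libraries were named after their values were seen. *Rapgef4*, the cAMP-activated exchange factor for Rap, was at 263 to 301 CPM in intact and 190 to 209 CPM in deleted libraries (log2 fold change -0.51, SE 0.05, adjusted p = 9.2e-04), with -0.55 and -0.47 in the 2 backgrounds. *Papss2*, an enzyme that makes the sulfate donor for matrix sulfation, was at 15.9 to 24.5 CPM in intact and 25.3 to 33.3 CPM in deleted libraries (log2 fold change 0.44, adjusted p = 0.0227), with 0.10 in AnkGKO over Control and 0.78 in DKO over NFKO. *Papss2* missed 0.05 in 9 of 23 alternative settings, with an adjusted p of 0.121 without Control 1 and NFKO 1 and 0.365 in the fit without genotype. Of the genes named here, 7 kept an adjusted p under 0.05 in each of 23 alternative settings, namely *Ank3*, *Mcf2*, *Rapgef4*, *Kif5a*, *Ecel1*, *Colec10* and *Phgdh*.

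AnkGKO against Control and DKO against NFKO share no library. In AnkGKO against Control 29 genes were called (0.165%), and in DKO against NFKO 108 (0.615%). All 10 called genes with non-overlapping libraries had the same direction in both, each at an unadjusted p under 0.05 in each background, a pattern that 102 genes of all tested showed (0.581%). Another 161 genes had such p-values in opposite directions. Since the 10 were chosen on the mean of these comparisons, this is a description. Called in both comparisons by themselves were 9 genes, of which *Ank3*, *Colec10* and *Phgdh* moved the same way and 6 moved in opposite ways.

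**Figure D3:**
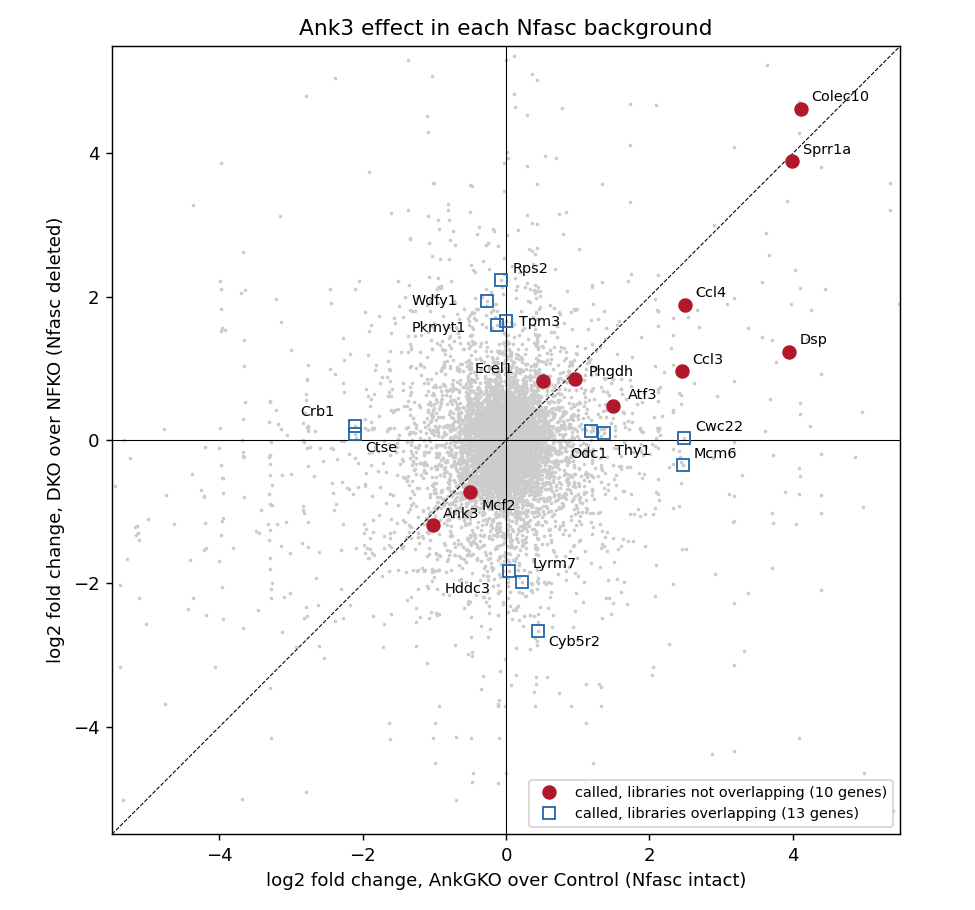
Log2 fold change of AnkGKO over Control (x axis, Nfasc intact) against that of DKO over NFKO (y axis, Nfasc deleted) for all tested genes (grey), with the 10 called genes with non-overlapping libraries as red discs and the 13 called genes with overlapping libraries as blue squares; 52 genes lie outside the axes and the dashed line marks equal effects. The red genes lie in the upper right and lower left, while each blue gene lies close to 1 of the axes, such as Cwc22 at 2.48 and 0.02 and Tpm3 at 0.00 and 1.66.

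The 13 called genes with overlapping libraries moved in 1 background each, 6 in AnkGKO against Control and 7 in DKO against NFKO. In 7 of them NFKO was the genotype that stood apart from the other 3, in 5 it was AnkGKO, and in 1 it was Control. At *Rps2* DKO also stood apart, above the other 3 genotypes. NFKO stood apart at *Tpm3* (log2 fold change 0.83), *Rps2* (1.08), *Wdfy1* (0.84), *Pkmyt1* (0.74), *Lyrm7* (-0.88), *Hddc3* (-0.90) and *Cyb5r2* (-1.11). Of these, *Rps2* and *Pkmyt1* lie on chromosome 17. On that chromosome 28 of 820 tested genes were called in DKO against NFKO (3.42%, beside 0.615% over all genes). None of the 820 was called in AnkGKO against Control (beside 0.165%), and the cause was not tested. For *Tpm3*, a tropomyosin, the 3 NFKO libraries lay at 8.44 to 8.59 CPM, while Control, AnkGKO and DKO lay at 23.8 to 29.7 CPM. The deleted libraries were thus at the level of Control, and the NFKO libraries alone set the intact group apart.

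AnkGKO stood apart at *Cwc22* (1.25), *Odc1* (0.66), *Mcm6* (1.06), *Crb1* (-0.96) and *Ctse* (-1.01). For *Cwc22*, a splicing factor, AnkGKO was at 51.0 and 56.7 CPM, and the other 9 libraries, DKO included, at 8.71 to 9.99 CPM. *Mcm6*, *Crb1* and *Ctse* lie on chromosome 1 at 4.20, 6.46 and 0.889 Mb from *Nfasc*, whose floxed alleles the AnkGKO mice lack by their label. They were the 3 called of 180 tested genes within 20 Mb of *Nfasc* (1.67%, beside 0.131% over all genes). In AnkGKO against Control 5 of the 180 were called (2.78%, beside 0.165%), *Nav1* (0.73) and *Tnni1* (3.29) included. The changes of these genes and that difference of alleles cannot be told apart. *Ctse* passed an adjusted p of 0.05 in 6 of 23 alternative settings, *Cyb5r2* in 9 and *Mcm6* in 13, and all 3 missed it without AnkGKO 1 and without AnkGKO 2. Control stood apart at *Thy1* (0.73), a surface glycoprotein of neurons, at 689 to 730 CPM in Control mice and 1371 to 1901 CPM in all libraries of the 3 mutants. In *Cwc22*, *Hddc3*, *Odc1*, *Rps2* and *Tpm3* between 10.8 and 25.5% of 50-base words occur in another gene, so that reads may be split among copies.

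The difference of the Ank3 effect between the Nfasc backgrounds passed in 93 genes (0.530%), and 13 of these were among the 23 called. Those called in both backgrounds but in opposite ways numbered 6 and are named after their values were seen. *Serpina3n*, a serine protease inhibitor induced in reactive astrocytes, was at 70.4 to 75.7 CPM in Control, 217 to 264 CPM in NFKO, 184 and 270 CPM in AnkGKO and 84.2 to 103 CPM in DKO. It thus rose by 1.64 on the log2 scale with *Ank3* loss where *Nfasc* was intact by label. It fell by 1.38 where *Nfasc* was deleted by label, a difference of -3.01. *Serpina3f*, *H2-Bl* and *Apoa2* were likewise high in both single knockouts and low in Control and DKO, while *Rps3a* and *Gm5148* were low in both single knockouts and high in Control and DKO. As the mean of both backgrounds, *Serpina3n* was at 0.13 on the log2 scale (adjusted p = 0.662).

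Genes of the axon initial segment other than *Ank3* were not called. Of 24 tested members of the initial segment and node list 17 were higher and 7 lower, with a median of 0.04. *Scn2b*, a sodium channel beta subunit, was at 122 to 195 CPM in intact and 117 to 142 CPM in deleted libraries (log2 fold change -0.40, 95% confidence interval -0.65 to -0.15, adjusted p = 0.278). *Spnb4*, the table's name for the beta-IV spectrin gene *Sptbn4*, was at 193 to 226 CPM in intact and 182 to 196 CPM in deleted libraries (log2 fold change -0.17, adjusted p = 0.280). It was also the member with the smallest p among 7 ankyrin and spectrin genes, of which 3 were higher and 4 lower. Among the 4 L1 family genes 3 were higher, and among 7 perineuronal matrix genes 3 were higher, with no call in either list.

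Of 28 vesicle and release genes 19 were lower, with a median of -0.04. *Cadps*, which primes dense core vesicles, was at -0.44 on the log2 scale (adjusted p = 0.0188), but it was at 494 to 542 CPM in Control mice and 232 to 292 CPM in every other library, with -1.02 in AnkGKO over Control and 0.14 in DKO over NFKO. Of 26 postsynaptic genes 17 were lower. *Shank3*, a scaffold of excitatory synapses, was at 88.2 to 108 CPM in intact and 67.2 to 86.7 CPM in deleted libraries without overlap (log2 fold change -0.33, adjusted p = 0.101). Of 11 immediate early genes 6 were higher and 5 lower, and of 15 neuropeptide genes 10 were higher, without a call.

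Genes of cholesterol synthesis and its control leaned lower. Of 17 tested, 16 were lower and 11 of these had an unadjusted p under 0.05, beside 5.13% of all genes in that direction. The median log2 fold change was -0.22, at -0.16 in AnkGKO over Control and -0.25 in DKO over NFKO, and no member was called. Summed CPM of the list overlapped, at 1915 to 2281 in intact and 1665 to 2090 in deleted libraries. Only AnkGKO 1 (1703 CPM) and DKO 1 (1665 CPM) lay below the intact range. *Insig1*, a sterol sensor, was at 118 to 132 CPM in intact and 75.1 to 137 CPM in deleted libraries (adjusted p = 0.233), where both AnkGKO libraries lay below all others. *Idi1*, an isomerase of the pathway, was at 4.87 to 6.35 CPM in intact and 3.41 to 4.47 CPM in deleted libraries without overlap (log2 fold change -0.37, adjusted p = 0.280). Central myelin genes, whose membranes hold much of the brain's cholesterol, had a median of -0.03 over 13 members, and *Mbp* lay at 12740 to 15040 CPM in intact and 12760 to 15120 CPM in deleted libraries.

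Motor neuron genes leaned higher, with 9 of 10 tested higher, a median of 0.51 and no call. *Uts2*, a peptide of cholinergic motor neurons, was at 2.35 to 9.49 CPM in intact libraries, 6.23 and 6.41 CPM in AnkGKO and 22.8 to 27.0 CPM in DKO (log2 fold change 1.09, adjusted p = 0.0676). *Chat*, the enzyme of acetylcholine synthesis, was at 29.5 to 52.7 CPM in intact and 34.3 to 66.7 CPM in deleted libraries (adjusted p = 0.539). The summed list ran from 271 to 639 CPM in intact and from 338 to 847 CPM in deleted libraries, and with *Hoxc8* as a covariate 8 of 10 were higher with a median of 0.30. In that fit 1 member was called, as it was without Control 1 and NFKO 1 and without Control 1 and DKO 1. *Uts2* passed an adjusted p of 0.05 in 7 of 23 alternative settings. Of 14 caudal Hox genes 9 were higher, and their sum was 396 to 617 CPM in intact and 481 to 605 CPM in deleted libraries.

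Markers of the labelled tissue lay lower in the deleted libraries, and 2 of the intact libraries stood far above all others in them. All 12 Purkinje cell genes were lower with a median of -0.98, and all 11 granule cell genes with a median of -0.85, 4 and 6 of them at an unadjusted p under 0.05 and none called. Summed Purkinje cell genes were at 1254 CPM in Control 1 and 1358 CPM in NFKO 1, at 269 to 398 CPM in the other 4 intact libraries and at 264 to 332 CPM in the deleted libraries. Without Control 1 and NFKO 1, 11 of 12 and 9 of 11 were lower, with medians of -0.22 and -0.34. *Gabra6*, a receptor subunit of granule cells, was at 0.0186 to 84.2 CPM in intact and 0.0217 to 1.61 CPM in deleted libraries. Levels near 0 of *Pcp2* and *Gabra6* in most libraries go against the tissue label, while the spinal Hox genes do not belong to it. A loss of Purkinje cell RNA with *Ank3* cannot be read from these libraries.

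**Figure D4:**
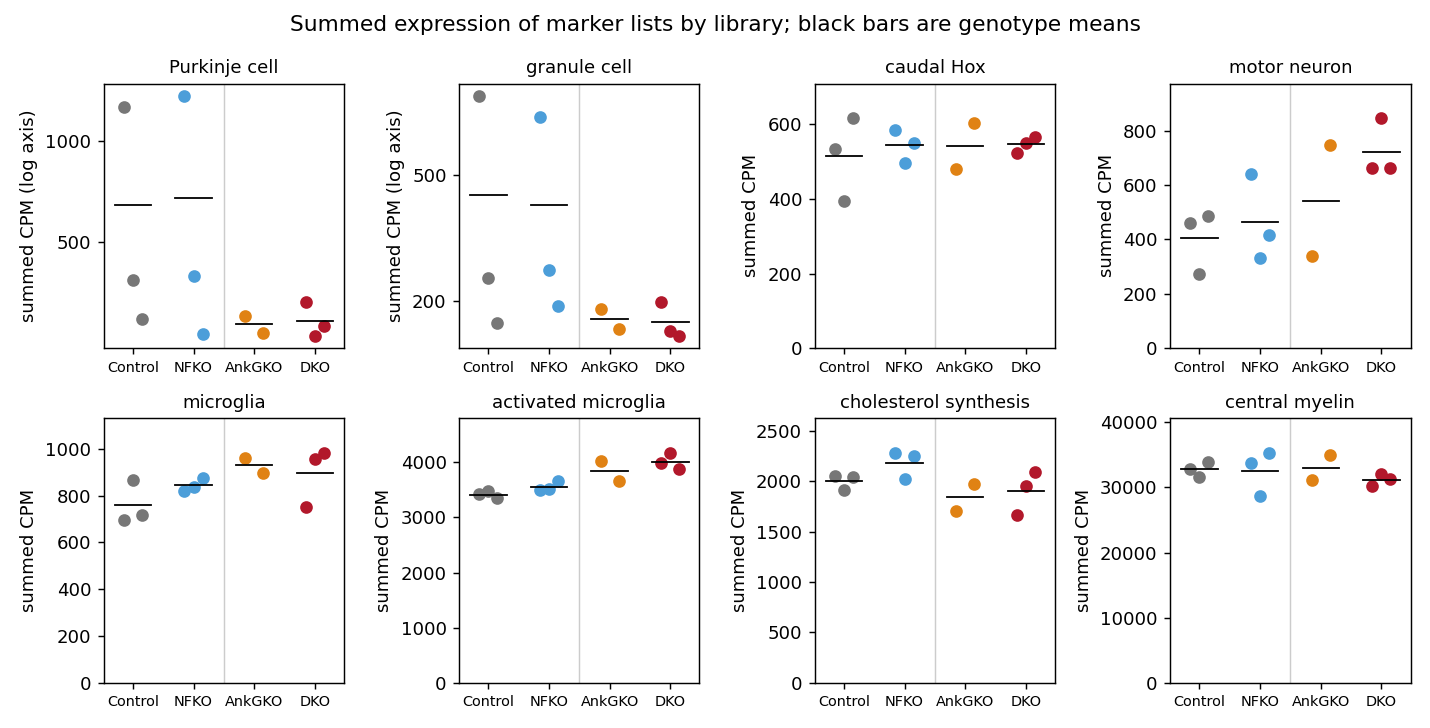
Summed CPM of 8 marker lists in each library (log axis for Purkinje and granule cell genes), by genotype, with black bars at genotype means. Purkinje cell genes reach 1254 and 1358 CPM in Control 1 and NFKO 1 and at most 398 CPM elsewhere, while the activated microglia sums of the deleted libraries, 3664 to 4169 CPM, all lie above those of the intact libraries, 3346 to 3659 CPM.

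Markers of other tissues that a dissection can carry were lower in the mean of both backgrounds, none of them called. Meningeal fibroblast genes were lower in 10 of 10, skeletal muscle genes in 11 of 11 and Schwann cell genes in 7 of 7. The backgrounds were not alike, since the Schwann cell median was 0.27 in AnkGKO over Control and -0.68 in DKO over NFKO, and 1 of 7 was lower in both. The medians were -0.10 and -1.57 for fibroblast and -5.13 and -1.30 for muscle genes. Their sums ran from 159 to 1682 CPM in intact and 117 to 462 CPM in deleted libraries for fibroblast, from 4.18 to 513 and 3.74 to 239 CPM for muscle and from 231 to 626 and 191 to 483 CPM for Schwann cell genes. Choroid plexus, endothelial, ependymal, oligodendrocyte precursor and blood genes held no called member. Of 378 other tested genes within 20 Mb of *Ank3* none was called, and the smallest p belonged to *Bpifc*, 15.9 Mb away, at 0.0557 to 0.309 CPM in intact and 0.467 to 0.801 CPM in deleted libraries without overlap (adjusted p = 0.0545).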

How the data were processed

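Polyadenylated RNA of 11 mouse libraries was sequenced, and groups were taken from the sample labels. Per the labels and the processing notes the authors used strand-specific libraries, FastQC 0.12.1, Trimmomatic 0.39, STAR 2.7.11a, GRCm39 and DESeq2 1.40.2 in R 4.3.2. The authors deposited raw read counts per gene for 22609 genes, which were used for all tests, and the same counts divided by size factors as normalized signal, which was not used here. The labels give single-end reads of 100 bases, whereas the study's methods give paired ends. The methods give 3 AnkGKO mice, of which 2 libraries were analysed. The 5 summary rows of the table, named as htseq-count names them, were left out of library sizes and tests. Rows of reads aligned to more than 1 place held 32.5 to 34.3% of the table and rows of reads on no gene 9.41 to 10.6%.

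Genes with at least 10 counts in total (17557) were fitted with edgeR 4.0.16 in R 4.3.3 (TMM scaling, robust quasi-likelihood, 4 genotype means, Benjamini-Hochberg adjustment over all genes), and the contrast was the mean of AnkGKO and DKO minus the mean of Control and NFKO. Adjusted p-values come from this test throughout. Calls needed an adjusted p under 0.05 and a log2 fold change of 0.6 or more in size. The labels call the libraries biological replicates of each genotype. Depth was 38890851 to 55822361 gene counts per library. Named are *Ank3*, *Nfasc*, called genes (up to 15 in each direction in full, if their libraries did not overlap), the smallest p-values in each of 31 gene lists and the first markers of a list. The comparison, its members and the lists were chosen with earlier results of these data known. Alternatives were DESeq2 1.42.0 with a local fit, DESeq2's size factors, other filters, thresholds and models, replicate blocks, *Xist* as a covariate, and leaving out libraries. Added after seeing the data were *Hoxc8* as a covariate, leaving out Control 1 and DKO 1, and DESeq2 with a parametric fit. The fits were tested on simulated data. Positions came from GENCODE vM39 on GRCm39, with 18294 symbols matched directly and 2250 as synonyms, and 2065 had no match. Promoter windows came from RefSeq on GRCm38.p6. Shared sequence is the share of a gene's 50-base transcript words found in transcripts of any other gene.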

Additional observations from a re-analysis of the deposited data

Results flagged for a closer look

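In 2 of 56 groups examined over 28 genes, 1 library lay far from the others of its group, where chance gives about 1 in 20. In *Sprr1a*, AnkGKO 1 was at 7.20 CPM while the other 4 Ank3-deleted libraries were at 2.29 to 3.01 CPM. In *Kif5a*, AnkGKO 1 was at 1710 CPM while the other 4 were at 1981 to 2040 CPM. In both genes AnkGKO 1 lay on the far side from the intact libraries.

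Of the 28 genes, 13 had an Ank3 effect that differed between the Nfasc backgrounds at an adjusted p under 0.05 for the difference itself, from edgeR's quasi-likelihood test. *Serpina3n* and *Rps3a*, among the 3 genes with the smallest p for that difference, are given with them. The difference in log2 fold change, DKO over NFKO minus AnkGKO over Control, was positive in *Crb1* (2.30), *Ctse* (2.20), *Pkmyt1* (1.73), *Rps2* (2.30), *Tpm3* (1.66), *Wdfy1* (2.20) and *Rps3a* (10.12). It was negative in *Cwc22* (-2.46), *Cyb5r2* (-3.11), *Hddc3* (-1.88), *Lyrm7* (-2.21), *Mcm6* (-2.82), *Odc1* (-1.07), *Thy1* (-1.27) and *Serpina3n* (-3.01). *Rps3a*, a ribosomal protein gene, was at 21.2 to 26.4 CPM in Control and 22.8 to 26.4 CPM in DKO, and at 0.371 to 1.91 CPM in the 5 libraries of the single knockouts.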

How the results depend on the processing

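The call count of the Ank3 comparison stayed within 1.5 times of 23 with DESeq2's size factors, other filters and the *Xist* or *Hoxc8* covariate. It was 6 with deleted and intact as the groups, 6 in an additive model, 11 without the libraries highest in *Pcp2* (Control 1 and NFKO 1), 11 at an absolute log2 fold change of 1, 38 without a fold threshold, 127 in DESeq2 with a local and 88 with a parametric fit. Leaving out 1 library gave 13 (AnkGKO 2) to 26. AnkGKO against Control had 29 calls, with 102 and 76 in DESeq2 (local, parametric), 15 with *Xist* as a covariate and 18 (without AnkGKO 1) to 35 with 1 library left out. DKO against NFKO had 108, with 418 and 319 in DESeq2, 43 with *Xist*, 59 without Control 1 and NFKO 1, 70 without Control 1 and DKO 1, 69 at an absolute log2 fold change of 1 and 68 (without NFKO 1) to 162 with 1 library left out. The difference between backgrounds had 93, with 314 and 230 in DESeq2, 20 with *Xist*, 41 without Control 1 and NFKO 1, 57 without Control 1 and DKO 1 and 52 to 102 with 1 library left out. Where a setting removes libraries, fewer of them are fitted; for the others the cause was not tested.

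Genes with non-overlapping libraries numbered 176, then 428 without Control 1 and NFKO 1 and 215 to 439 with 1 library left out, since fewer libraries overlap less easily. *Nfasc* changed sign without AnkGKO 2, at -0.047, and ranged to 0.16 with 1 library left out.

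Same-numbered libraries deviated together in 7 of 15 pairs (r over 0.1, from -0.49 to 0.60), so the numbers were not taken to pair the groups compared. All 3 pairs of Control with NFKO, both Ank3-intact, were over 0.1 (0.60, 0.50 and 0.23), while DKO with NFKO reached it in 2 of 3 and AnkGKO with Control in 0 of 2. Deviations from a mean of 2 libraries mirror each other, so the AnkGKO pairs are not independent. Control 1, for example, was at -0.38 with AnkGKO 1 and at 0.38 with AnkGKO 2. With the replicate block 20 genes were called, 17 of them among the 23, and the other counts were 21, 85 and 75. *Atf3* (adjusted p = 0.0513, edgeR) and *Ccl4* (0.0545) were among those that missed 0.05 with the block. Low counts limit *Colec10*, *Ccl4*, *Ccl3* and *Sprr1a*.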
